A study of Mus musculus with 4 samples.

Results

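The 527 regions described here are weak peaks of topoisomerase IIα (TopoIIa) that were called in mouse embryonic stem cells lacking Brg1 and that lay beside, but not on, a TopoIIa site of the cells that still had Brg1. They were chosen from the 2 deposited peak lists by 3 conditions: a knockout peak on chromosomes 1 to 19 with a score below 100, no shared base with any wild-type peak, and a gap of at most 10 kb between its edge and the nearest edge of a wild-type peak. The whole knockout list held 4622 peaks, of which 4200 were autosomal and 3871 were autosomal and weak. The flanking peaks were 11.4% of the knockout list and 13.6% of its weak autosomal peaks. Of the other weak autosomal peaks, 711 lay on a wild-type peak and 2633 lay farther away than 10 kb.

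Both cell populations came from 1 line, derived from mice with a floxed Brg1 gene and a tamoxifen-activated Cre (Brg1f/f-actinCreER), grown on embryonic fibroblast feeders. Both carried V5-tagged human TopoIIa, with the mouse enzyme knocked down, so every value concerns the tagged human protein. The knockout cells (Brg1-/-) received tamoxifen and the wild-type cells ethanol for 24 h on gelatin, then 48 h in plain medium, and both were exposed to 100 µM etoposide for 10 min before lysis. Of the 4 samples, 1 V5 immunoprecipitate per genotype supplied a peak list and the 2 inputs were not analysed here. With 1 library per genotype there is no replicate error and no test between genotypes. The lists carry no read counts, so the depth of the libraries is unknown, and neither list measures Brg1 itself.

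TopoIIa cuts both strands of 1 DNA duplex, passes another duplex through the break and reseals it, which relieves supercoils and separates sister chromatids before cell division. Etoposide stops the resealing step, so the enzyme stays covalently joined to the DNA it has just cut, and a pull-down of the tag then recovers sites of enzyme activity. Brg1 is the ATPase of the BAF (mSWI/SNF) complexes, which move nucleosomes and are abundant in embryonic stem cells. A peak is a stretch of genome where more sequenced fragments were found than the peak caller expected.

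The members were narrow and close to the lower limit of the knockout list. Their scores ran from 50.02 to 98.59 with a median of 56.12 (quartiles 53.82 and 62.3), and 346 of 527 (65.7%) scored below 60. The score is the authors' own value for each peak and was used only within a list. Widths ran from 58 to 431 bp with a median of 138 bp (quartiles 129 and 148 bp), so every member was narrower than the narrowest wild-type peak, at 581 bp, as were 99.4% of the weak knockout peaks on wild-type sites and 99.5% of those farther away. Together the members covered 75.2 kb. They were weaker than the weak knockout peaks that lay on a wild-type site, whose median score was 61.53 (95% interval of the median 59.84 to 62.16, against 55.73 to 56.91 for the members). The peaks farther than 10 kb had a median of 56.91 (56.41 to 57.39), an interval that overlaps that of the members. The 3 classes also had similar median widths, at 138 bp for the members, 141 bp on wild-type sites and 140 bp farther away. They separated in the upper tail: 21 members were wider than 200 bp (3.98%, exact 95% interval 2.48 to 6.03%), against 11.1% (8.90 to 13.7%) on wild-type sites and 10.2% (9.09 to 11.4%) farther away. All intervals account for counting error alone and take each peak as independent of the others.

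The first comparison asked whether weak knockout peaks off the wild-type sites lay near them more often than their positions on the chromosome would give. The yardstick was every possible position of each knockout peak on its own chromosome, between the first and the last called base and with its width kept, counted exactly rather than drawn at random. Among the 3160 weak autosomal peaks off wild-type sites, 527 lay within 10 kb of one (16.7%, exact 95% interval 15.4 to 18.0%). Evenly spread placement off the wild-type sites gave 347.3 (10.99%), so the observed number was 1.52 times the placed one (1.401 to 1.64 from counting error). The rule itself chose peaks inside this window, so the number is a description. On the wild-type peaks themselves, 711 weak knockout peaks (18.4% of 3871) stood against 65.3 after placement, a ratio of 10.9. Even placement ignores sequence to which no read can be assigned, and it spreads peaks over parts of the chromosome that either list may avoid.

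The excess was not spread evenly through the window, and it was not greatest at the edge of the wild-type peak. In the first kb from the edge 56 members stood against 40.8 placed, a ratio of 1.37 (1.04 to 1.78). The next 2 kb bands held 75 and 58, at ratios of 1.94 and 1.56. The numbers then climbed to 91 members between 3 and 4 kb (ratio 2.54, 2.05 to 3.11) and 106 between 4 and 5 kb (ratio 3.06, 2.51 to 3.68). Beyond 5 kb they dropped to 43, at a ratio of 1.28 (0.926 to 1.72). From 6 to 10 kb there were 26, 23, 20 and 29 per kb, against 32.8, 31.98, 31.2 and 30.5 placed.

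**Figure D1:**
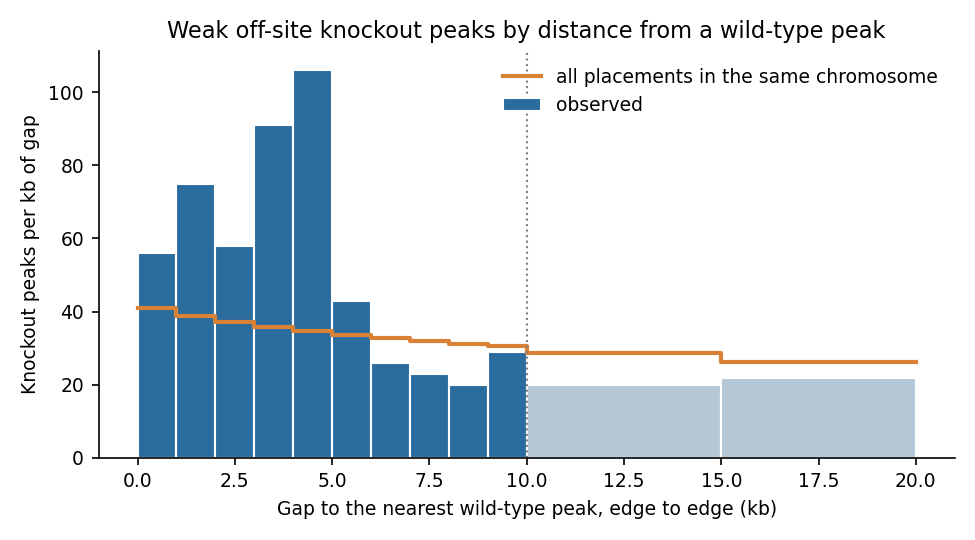
Weak autosomal knockout peaks off wild-type sites, per kb of gap (y axis), against the gap to the nearest wild-type peak in kb (x axis); blue bars are observed members, grey bars peaks beyond the 10 kb limit (dotted line), and the orange line the mean over all placements in the same chromosome. The observed bars rise to 106 peaks between 4 and 5 kb and lie below the line from 6 to 20 kb.

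Off the wild-type sites, the weak called peaks were thus densest some kb away from the edge of the wild-type peak. On the wild-type peaks themselves the ratio to placement was higher, at 10.9 against 3.06 between 4 and 5 kb. The profile describes calls: the reads, the inputs and the caller's settings were not used here, so the part of the calling in the rise at 3 to 5 kb and the drop at 5 kb was not tested. The band from 3 to 5 kb, singled out after the profile had been seen, held 197 of the 527 members (37.4%, exact 95% interval 33.2 to 41.7%), where placement puts 20.3% of those within 10 kb. The first 5 kb held 386 members (73.2%, 69.2 to 77.0%), against 53.9% placed. The outer 4 kb, from 6 to 10 kb, held 98 (18.6%, 15.4 to 22.2%), against 36.4% placed. The median gap was 3842 bp (95% interval 3600 to 4028 bp; quartiles 2020.5 and 5110 bp), and the gaps ran from 85 to 9965 bp. Measured from centre to centre of the 2 peaks, the median distance of the members was 5048 bp.

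Past the window the knockout peaks were sparser than placed before they returned to the placed level. Between 10 and 30 kb from a wild-type peak 389 weak off-site peaks stood against 508.1 placed, a ratio of 0.766. The ratio in the band from 30 to 50 kb was 0.944 (0.854 to 1.04), and between 50 and 500 kb the 3 bands gave 0.966, 0.956 and 1.04. The low level from 6 to 30 kb means that a yardstick taken from the nearest surroundings would be lower than even placement along the chromosome.

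Members lay on both sides of the wild-type peaks, with more at lower coordinates. Of the 527, 300 lay on the side of lower coordinates (56.9%, exact 95% interval 52.6 to 61.2%) and 227 on the side of higher coordinates, where placement gives equal numbers. The rise at 3 to 5 kb appeared on both sides. At lower coordinates the fullest 500 bp band was 4 to 4.5 kb away, with 34 members against 8.74 placed, followed by 3.5 to 4 kb with 33. At higher coordinates the fullest band was again 4 to 4.5 kb, with 25 members against 8.73 placed. The median gap was 3891 bp (3600 to 4138 bp) on the lower side and 3760 bp (3431 to 4117 bp) on the higher side, with overlapping intervals. In the band from 3 to 5 kb 115 of 197 lay on the lower side (58.4%, 51.2 to 65.3%). Chromosomes differed in this split: 13 had more members on the lower side and 6 had fewer, from 28.6% on chromosome 13 to 76.2% on chromosome 14. The lists give no strand, so a side here is a direction on the assembly and not upstream or downstream of a gene.

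**Figure D2:**
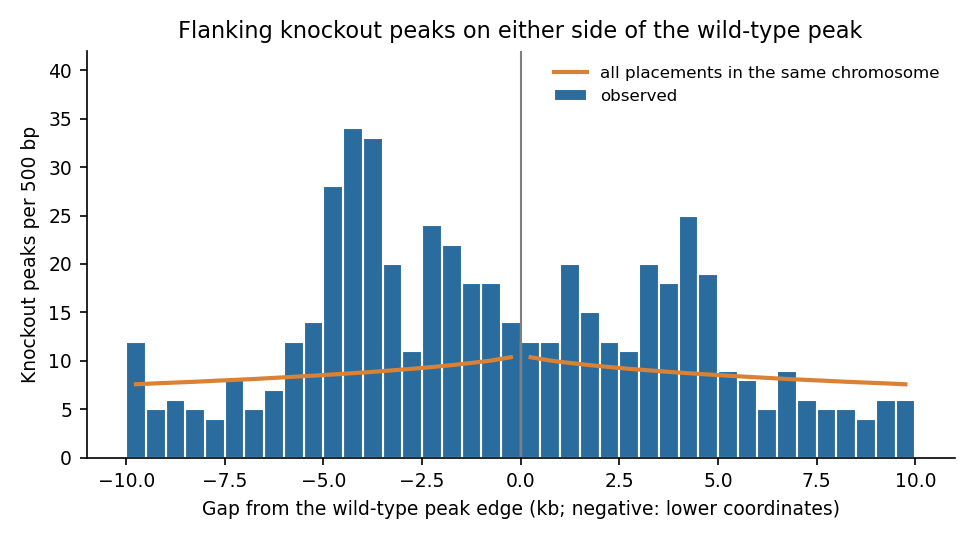
Members per 500 bp (y axis) by gap from the edge of the wild-type peak in kb, with negative values for the side of lower coordinates (x axis); blue bars are observed and the orange lines the mean over all placements. The highest bar on either side lies between 4 and 4.5 kb, with 34 members on the lower side and 25 on the higher side.

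The second comparison asked which wild-type sites were flanked. The 527 members had 493 different wild-type peaks as their nearest, which is 3.08% of the 16012 autosomal wild-type peaks. The score of the flanked peaks ran from 50.05 to 1693.13 with a median of 120.15 (95% interval 109.3 to 128.99; quartiles 76.37 and 187.66). The median of the autosomal wild-type peaks that were not flanked was 105.19 (103.76 to 106.76). Counted per member, the nearest wild-type peak had a median score of 118.12, where placement gives 106.28. A score of at least 100 was found in 292 of the 493 flanked peaks (59.2%, 54.7 to 63.6%) and in 52.9% of all autosomal wild-type peaks (52.1 to 53.7%).

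Flanking was least frequent in the lowest bin of wild-type score and most frequent in the seventh, whereas direct overlap was most frequent in the top bin. When the autosomal wild-type peaks were divided into 10 equal bins of score, the lowest bin (scores 50 to 56.51) had 26 members against 33.8 placed, a ratio of 0.768. The seventh bin (127.64 to 159.1) had the most, 75 against 34.7, a ratio of 2.16. The highest bin (310.23 to 3233.06) had 41 against 34.9, a ratio of 1.17. The share of wild-type peaks in these bins that were flanked was 1.56% (exact 95% interval 1.01 to 2.30%), 4.43% (3.48 to 5.56%) and 2.43% (1.74 to 3.31%). The share overlapped by a knockout peak of any score in the same bins was 0.936%, 5.06% and 11.05%, with dips at bin 3 (1.81%) and bin 5 (2.56%) along the way. In the second bin the flanked share was close to that of the highest (2.37%, 1.68 to 3.24%, ratio 1.17). The interval of the flanked share in the highest bin met that of every other bin except the seventh. The median score of the 740 autosomal wild-type peaks with a knockout peak on them was 177.505 (164.78 to 191.23), above the whole interval of the flanked peaks.

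The flanked sites were of ordinary width. Their median was 2132 bp (95% interval 2081 to 2193 bp; quartiles 1789 and 2518 bp), against 2167 bp (2154 to 2178 bp) for those not flanked. Counted per member, the nearest wild-type peak had a median width of 2131 bp, where placement gives 2132 bp. In 10 equal bins of width the ratio of observed to placed members ran from 1.15 in the second bin to 2.08 in the ninth (2700 to 3165 bp), with no order along the bins. The widest bin had 30 members against 25.9 placed. Broad wild-type domains over 5 kb made up 8 of the 493 flanked peaks (1.62%, 0.703 to 3.17%) and 2.12% of all autosomal wild-type peaks, a difference within the counting error.

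**Figure D3:**
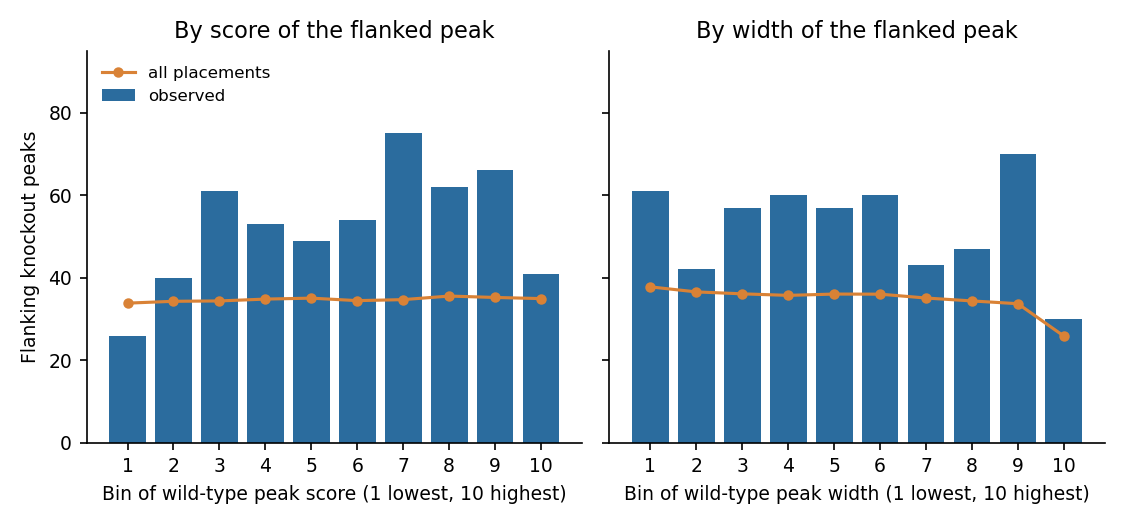
Number of members (y axis) whose nearest wild-type peak falls in each of 10 equal bins of wild-type score (left) or width (right; x axes); bars are observed and orange points the mean over all placements. By score the bars lie below the points in bin 1 (26 members) and reach 75 in bin 7; by width every bar lies above its point.

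The rise at 3 to 5 kb was seen around weak and strong flanked sites. When the members were divided into 4 equal classes by the score of their nearest wild-type peak, the fullest 1 kb band was 4 to 5 kb in each class, with 25 to 29 members. The share of members at 3 to 5 kb was 39.4%, 36.4%, 36.6% and 37.1% from the weakest to the strongest class. Divided by the width of the wild-type peak, the shares were 37.1%, 39.4%, 35.9% and 37.1%, and the fullest band was 4 to 5 kb in 3 classes and 1 to 2 kb in the third. Members at different gaps were also alike in themselves. Their median score was 56.21 within 3 kb, 55.73 at 3 to 5 kb and 56.04 at 5 to 10 kb, and their median width was 139, 138 and 139 bp, all with overlapping intervals.

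Most members were the only one at their site. A single member flanked 461 of the 493 wild-type peaks (93.5%), 2 flanked 31, and 4 flanked 1. In 6 of the 32 wild-type peaks with more than 1 member the members lay on both sides. Wild-type peaks lay within 10 kb on both sides of 27 members (5.12%). No other knockout peak lay within 10 kb of 424 members (80.5%, exact 95% interval 76.8 to 83.8%), against 85.5% (84.1 to 86.8%) of the peaks farther away and 71.6% (68.1 to 74.9%) of those on wild-type sites. No member belonged to a dense knockout group, in which 10 or more peaks follow each other at 10 kb or less (0 of 527, exact 95% upper limit 0.698%), while 70 of the 2633 peaks farther away (2.66%) and 76 of the 711 on wild-type sites (10.7%) belonged to one.

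Flanked sites more often had a knockout peak on them than wild-type sites in general, although most had none. Of the 493 flanked wild-type peaks, 42 (8.52%, exact 95% interval 6.21 to 11.3%) were also overlapped by a knockout peak of any score, and 451 were not. Among all 16012 autosomal wild-type peaks 740 were overlapped (4.62%, 4.30 to 4.96%), and the 2 intervals do not meet. The share without a knockout call of its own was 91.5% for flanked sites and 95.4% for all autosomal sites. A missing peak means that none was called at this threshold and at an unknown depth.

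The third comparison followed the flanking share along the score of the knockout peak. The bins of score were chosen with the data known. Of the off-site peaks scoring 50 to 55, 206 of 1156 were members (17.8%, exact 95% interval 15.7 to 20.2%), against 11.1% placed. In the bins from 55 to 60 and from 60 to 70 the shares were 16.7% (14.2 to 19.4%) and 17.8% (15.2 to 20.6%). In the bin from 70 to 100, 40 of 373 were members (10.7%, 7.77 to 14.3%), against 10.9% placed. An excess over placement was thus seen in the bins below 70. None was detectable in the bin from 70 to 100, whose interval, up to 14.3%, does not exclude one. At 3 to 5 kb the ratios of observed to placed were 3.39, 1.99, 3.29 and 1.70 over these bins, the last from 14 peaks.

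**Figure D4:**
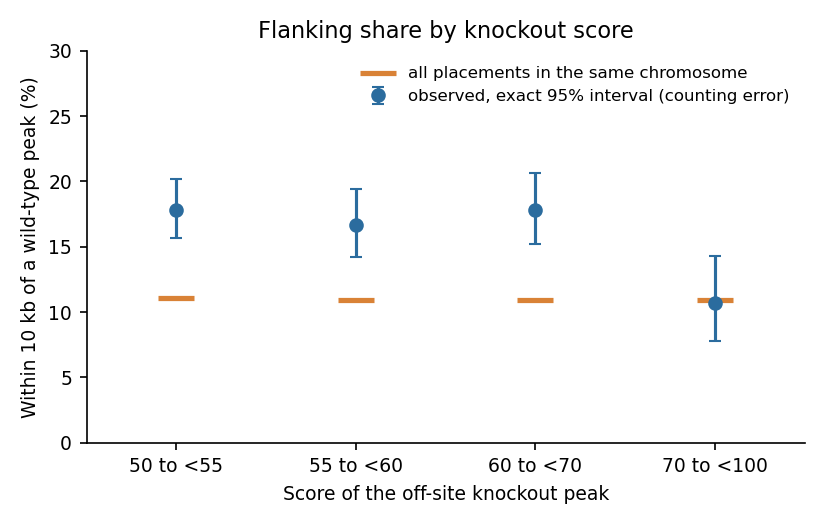
Percent of weak autosomal off-site knockout peaks that are members (y axis) by bin of knockout score (x axis); points are observed with exact 95% intervals for counting error, and orange bars the mean over all placements. The observed share exceeds placement in the 3 bins below 70 and meets it, at 10.7%, in the bin from 70 to 100.

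Knockout peaks that the rule left out gave a check on the profile. On X, which the rule does not cover, 49 of 311 weak off-site knockout peaks had a wild-type peak within 10 kb (15.8%, exact 95% interval 11.9 to 20.3%), against 6.88% placed. Of these 49, 19 had a gap of 3 to 5 kb (38.8%, 25.2 to 53.8%), against 4.30 placed, a ratio of 4.42. The share at 3 to 5 kb on X thus lay inside the interval of the autosomal members. The low level at 6 to 10 kb was not seen on X, where 12 peaks stood against 8.42 placed, a small count whose difference from the autosomes was not tested. Among autosomal peaks with a score of at least 100, 22 of 149 off-site peaks lay within 10 kb (14.8%, 9.49 to 21.5%), against 11.1% placed, and 4 of the 22 had a gap of 3 to 5 kb, against 3.37 placed. That number is too small to show or refuse such a rise. On the side of lower coordinates lay 26 of the 49 peaks on X (53.1%, 38.3 to 67.5%) and 10 of the 22 autosomal peaks (45.5%, 24.4 to 67.8%). Both intervals include equal sides as well as the 56.9% of the members, so they do not decide whether the uneven sides recur.

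Gaps between neighbouring wild-type peaks showed no rise at 3 to 5 kb in their raw counts. They were not set against placement and run between wild-type peaks only, so they are an unlike measure to the gaps of the members. Among 15993 pairs of neighbouring autosomal wild-type peaks, gaps of up to 1 kb were the most frequent in bands of 1 kb, with 639 pairs, and the number fell band by band to 319 pairs at 3 to 4 kb, 292 at 4 to 5 kb and 251 at 5 to 6 kb.

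Members were found on every autosome, and on each of the 19 their number exceeded the placed one. The ratio ran from 1.12 on chromosome 19 (8 members, 7.17 placed) and 1.13 on chromosome 7 (29 members, 25.8 placed) to 1.93 on chromosome 1 (39 members, 20.2 placed). On 9 chromosomes the exact 95% interval of the share lay above the placed share. Chromosome 8 had the highest share of its off-site weak peaks in the window, 43 of 186 (23.1%, 17.3 to 29.8%), against 13.9% placed. On chromosome 11 the share was 16.9% (10.9 to 24.5%), against 14.3% placed, a difference within the counting error. The part of the members at 3 to 5 kb ran from 1 of 8 on chromosome 19 and 4 of 22 on chromosome 11 (18.2%) to 16 of 29 on chromosome 7 (55.2%). It was 6 of 32 on chromosome 12 (18.75%) and 5 of 23 on chromosome 10 (21.7%). Placement over all autosomes puts 20.3% there, so chromosomes 10, 11, 12 and 19 lay near or below that level, from small counts. Chromosomes are not replicates.

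**Figure D5:**
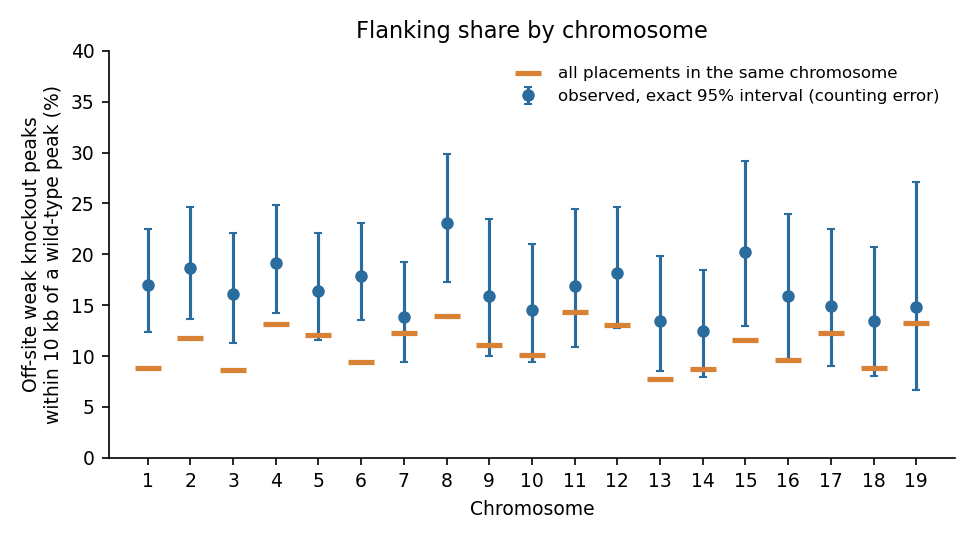
Percent of weak off-site knockout peaks that are members (y axis) on each autosome (x axis); points are observed with exact 95% intervals for counting error, and orange bars the mean over all placements in that chromosome. Every point lies above its bar, from 12.5% on chromosome 14 to 23.1% on chromosome 8, while many intervals reach down to the bar.

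Individual members are named by their mm9 coordinates. Neither genes nor sequence of that build were used here, so the genes at these positions were not looked up. The 5 members nearest to a wild-type peak lay 85 to 162 bp from it and scored 51.15 to 56.82. The closest was on chromosome 19 from 6559728 to 6559867 (140 bp, score 53.34), 85 bp above a wild-type peak from 6557851 to 6559642 (score 109.81). On chromosome 9 the member from 80849194 to 80849410 ended 98 bp before a wild-type peak from 80849509 to 80852725 (3217 bp, score 262.95), which had a second member. The other 3 were on chromosome 6 from 96245821 to 96245963, chromosome 15 from 34723824 to 34723964 and chromosome 10 from 46637431 to 46637537.

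The 5 members beside the strongest wild-type sites all lay at lower coordinates of their site. These are single picked members, and the side was not followed along the wild-type score. The strongest flanked site was on chromosome 10 from 27537715 to 27546061 (8347 bp, score 1693.13), and its member, from 27534676 to 27534858, stood 2.86 kb away with a score of 60.9. The next, on chromosome 7 from 48426594 to 48431419 (4826 bp, score 1152.17), had its member 4.19 kb away, from 48422270 to 48422407 (score 53.79). On chromosome 2 the site from 80650715 to 80657985 (7271 bp, score 987.97) had a member at 1.01 kb, and on chromosome 3 the site from 140433298 to 140437414 (4117 bp, score 800.49) had one at 4.72 kb. The fifth, on chromosome 15 from 91820190 to 91825528 (5339 bp, score 730.94), had its member at 6.39 kb. The scores of these 5 members ran from 52.24 to 72.15.

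The members with the highest scores showed no common distance. They were on chromosome 14 from 99134402 to 99134471 (70 bp, score 98.59, gap 2.01 kb), on chromosome 18 from 77509120 to 77509368 (249 bp, score 97.82, gap 8.50 kb) and on chromosome 10 from 53609002 to 53609059 (58 bp, score 96.97, gap 9.56 kb). The fourth was on chromosome 3 from 90091474 to 90091539 (66 bp, score 94.22, gap 9.18 kb), and the fifth, on chromosome 4 from 82710151 to 82710581, was the widest of all members (431 bp, score 91.58) and lay 0.247 kb from a strong wild-type peak (score 475.26). Of these 5, 3 were between 58 and 70 bp wide, less than the lower quartile of the members. The first 3 are also the members just below the score limit. The otherwise qualifying peaks just above it scored 101.17 and 102.44, both on chromosome 8, and 103.38 on chromosome 3, with gaps of 2.15, 0.601 and 3.19 kb.

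The wild-type peak with the most members was on chromosome 6 from 10654281 to 10657167 (2887 bp, score 187.66). One of its 4 members lay at lower coordinates, from 10644238 to 10644354 at 9.93 kb, and the others lay at higher coordinates, 6.57, 6.83 and 8.59 kb away, so that none was 3 to 5 kb away. The sites with 2 members that the naming rule picked were on chromosome 18 from 77499039 to 77500615 (gaps 5.08 and 8.50 kb), chromosome 3 from 75583549 to 75584594 (2.38 and 3.51 kb), chromosome 17 from 88144595 to 88146350 (0.942 and 2.69 kb) and chromosome 5 from 43217542 to 43220403 (4.20 and 5.18 kb). Ties among the 31 sites with 2 members were broken by the highest member score. In these 4 both members lay at higher coordinates, but over all 31 both members lay at higher coordinates in 13, at lower coordinates in 13 and on opposite sides in 5. At the edge of the window, the 3 members just inside had gaps of 9965, 9942 and 9926 bp, on chromosomes 12, 13 and 6. The 3 weak off-site peaks just outside had gaps of 10005, 10024 and 10030 bp, on chromosomes 17, 6 and 7, and scores of 54.02, 54.48 and 54.71.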

How the data were processed

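For each V5 library 1 list of peaks with a score per peak was deposited, and no read counts were used. Per the submitters' processing notes, the tools were MACS 1.4.2 and Bowtie 0.12.8 and the build was mm9, with no roles stated; the calling settings, filters and control were not given in the sources used here. Libraries were amplified for 17 cycles and selected near 300 bp, per the labels' protocols. Whether both lists were called alike is unknown, and so is the depth.

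Gaps were counted in bases between peak edges, an overlap of 1 bp made a peak on-site, and positions are printed 1-based. Placements were enumerated at every start between the first and last called base of a chromosome, conditional on no wild-type overlap. Shares carry exact (Clopper-Pearson) and medians order-statistic 95% intervals. The placement script was tested on simulated data. Named peaks were the 5 nearest to a wild-type peak, the 5 of highest score, the 5 beside the strongest wild-type peaks, the 5 wild-type peaks with the most members, and 3 on either side of each limit. The members, the comparisons and the 3 to 5 kb band were chosen with earlier results of these data known. Alternatives varied the window, score limits, distance measure, peak sets and placement span. Python 3.11.15 was used with scipy 1.17.1, pandas 2.3.3, numpy 2.4.6 and, for plots, matplotlib 3.10.9.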

Additional observations from a re-analysis of the deposited data

How the results depend on the processing

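Of 127 values recomputed under 12 alternative settings, 112 lay inside the interval of the value they replace (for counts, within 1.5 times of it) and 15 moved. Some of the 112 could not move, so their number is no measure of stability. No member was in a dense group, the placement span cannot alter an observed share or gap, and the window cannot alter the ratio at 3 to 5 kb. The limit for counts also took in 386 members with the 5 kb window and 736 with the 20 kb window. The ratio of observed to placed members stayed between 1.18 and 2.06. With a window of 5 kb the share within the window (16.7%) became 12.2%, its ratio to placement (1.52) 2.06, the part at 3 to 5 kb (37.4%) 51.0% and the median gap 3043.5 bp. With a window of 20 kb these became 23.3%, 1.18, 26.8% and 4726.5 bp. The shifts in the shares and the median gap follow from the window itself. The fall of the ratio with wider windows reflects the profile beyond 5 kb. There 141 peaks stood against 160.2 placed from 5 to 10 kb, and 209 against 274.6 from 10 to 20 kb. When wild-type peaks scoring under 100 were left out, so that fewer sites could be flanked, 321 peaks met the rule (9.55% of the off-site peaks), and the flanked peaks had a median score of 168.82 and a median width of 2320 bp. Measured centre to centre, the part at 3 to 5 kb became 28.7%, its ratio to placement (2.80) 1.93 and the median distance 4850.5 bp, since part of each peak's width is then added to the gap. The number of autosomes with more members than placed (19) was 18 with the 5 kb window, 16 with the 20 kb window and 17 with the stronger wild-type peaks. Over all settings the ratio at 3 to 5 kb ran from 1.93 to 2.89. No paired analysis was possible because there is only 1 library for each genotype, and for the same reason no library could be left out.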

Other observations

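The ends of the autosomes differed in the flanking share. In the last 10 Mb before the last called position 49 of 211 weak off-site knockout peaks had a wild-type peak within 10 kb (23.2%, exact 95% interval 17.7 to 29.5%), and in the first 10 Mb of the chromosome, next to the mouse centromere, 28 of 223 did (12.6%, 8.51 to 17.6%). The density of wild-type peaks was not taken into account, and the difference was not tested. A further 57 members (10.8%, 8.30 to 13.8%) had a knockout peak that was no member within 10 kb.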
